A study of Mus musculus with 42 samples.

Results

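The mRNAs of 10 core genes of the Hippo pathway were followed in mouse embryonic stem cells through an immunoprecipitation of the protein Tnrc6a. The genes are Lats1, Lats2, Stk3, Stk4, Sav1, Mob1a, Mob1b, Yap1, Wwtr1 and Amotl2, taken by gene symbol. All 10 were in both count tables, among 18825 genes of experiment 1 and 19866 genes of experiment 2, and all 10 passed the filter on low counts. The symbol Lats2 stood in 2 rows, and the row with the larger total count (8329 against 5181 counts over experiment 1, 7129 against 4186 over experiment 2) was used.

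The Hippo pathway is a kinase cascade that restrains growth. The MST kinases, which Stk3 and Stk4 encode and the scaffold Sav1 assists, activate the LATS kinases Lats1 and Lats2 together with their adaptors Mob1a and Mob1b. Active LATS kinases phosphorylate the co-activators YAP (Yap1) and TAZ (Wwtr1), which keeps them out of the nucleus and away from TEAD transcription factors. Amotl2 is an angiomotin family member that binds YAP and TAZ and is itself induced by them. Tnrc6a is a GW182 protein, the partner of microRNA-loaded Argonaute proteins that brings deadenylases to a target mRNA. Trim71 is an RNA-binding protein of early embryonic cells, and Ago2 is an Argonaute protein.

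Every line was of 129S6/SvEvTac embryonic stem cells with a GFP reporter carrying Trim71 binding sites (GFP_5xT71BS) and a stable FLAG-Cas9::T2A::Blasticidin transgene, the untagged controls included. The cells were grown on gelatin in serum and LIF, as 3 dishes per group. Untagged cells, cells whose Tnrc6a carried an HA-AVI tag (tagged cells) and tagged cells labelled Trim71-/- (Trim71KO) were used in both experiments, and tagged cells labelled Ago2-/- (Ago2KO) in experiment 2. RNA was sequenced from anti-HA beads (IP) and from the lysate (input), which gave 18 libraries in 6 groups in experiment 1 and 24 libraries in 8 groups in experiment 2. How many clones each genotype stands for was not given in the sources used here, so the p-values measure the spread between dishes.

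Library totals lay between 12587257 and 23657840 counts in experiment 1 and between 16296447 and 21026552 in experiment 2. All 10 embryonic stem cell markers examined were in both tables, with summed input levels of 6881 to 8369 CPM (counts scaled to library size) in experiment 1 and 7634 to 9430 CPM in experiment 2. Tnrc6a mRNA itself was more abundant in the IP of tagged than of untagged cells, with a log2 difference in enrichment of 8.34 ± 0.28 (SE) and 7.90 ± 0.31 in experiments 1 and 2. Ago2 input RNA was lower in Ago2KO than in tagged cells by a log2 change of -1.12 ± 0.10 (edgeR adjusted p = 2.52e-08). Trim71 input RNA showed no decrease under the Trim71KO label (0.23 ± 0.09 and 0.42 ± 0.08), so RNA level gives no check of that label, and Trim71KO below means the libraries so labelled.

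Lats2 is a reported target of the stem cell microRNAs that share the seed AAGUGCU. In the RefSeq mature microRNAs of GRCm38.p6, 5 of 1738 carried this seed, and they are shown because the seed is the part that pairs with a target. Capitals mark the seed, bases 2 to 8 from the 5′ end.
miR-302b-3p: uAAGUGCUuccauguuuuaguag
miR-302d-3p: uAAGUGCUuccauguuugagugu
miR-291a-3p: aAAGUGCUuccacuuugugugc
miR-294-3p: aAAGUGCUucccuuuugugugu
miR-295-3p: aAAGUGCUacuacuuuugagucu
The first pair lies on the plus strand of chromosome 3 (chr3:127545275-127545297 and chr3:127545665-127545687). The other 3 lie on the plus strand of chromosome 7 (chr7:3218968-3218989, chr7:3220691-3220712 and chr7:3220815-3220837). MicroRNA levels were not analysed here, and neither were target sites in the members' 3′ UTRs.

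Per exon length, Yap1 and Stk4 were the most abundant members in input and Lats2, by the row used, the least. The other Lats2 row, of 3287 against 6971 bases, held 5181 against 8329 counts over experiment 1. Its RPKM was not placed in this order, so the ranks of Lats2 here and in the IP hold for the row used. By the authors' RPKM (reads scaled to exon length and library depth), Yap1 stood at 19.0 ± 1.37 (SD, n = 3) and Stk4 at 16.5 ± 1.99 in tagged input of experiment 1, and these overlapped. Mob1a (9.20 ± 0.96) and Sav1 (8.62 ± 0.29) overlapped below them, followed by Wwtr1 (6.16 ± 0.25) and Amotl2 (5.78 ± 0.52), which also overlapped. Stk3 (3.61 ± 0.72) and Lats1 (3.45 ± 0.44) could not be separated either. The lowest levels were those of Mob1b at 1.63 ± 0.24 RPKM and Lats2 at 0.867 ± 0.134 RPKM, whose libraries did not overlap. Tagged input of experiment 2 again ran from Stk4 (16.7 ± 0.29) and Yap1 (15.9 ± 0.29), here without overlap, to Mob1b (1.63 ± 0.25) and Lats2 (0.773 ± 0.047).

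In the tagged IP that order was different. Lats1 was the most abundant member at 117 ± 15.1 RPKM in experiment 1 and 54.0 ± 13.0 RPKM in experiment 2, above every library of the next member. Lats2 reached 14.7 ± 2.16 RPKM and Mob1b 13.4 ± 1.02 RPKM in experiment 1, above all libraries of Amotl2, Sav1, Wwtr1 and Stk3. In experiment 2 Lats2 stood at 4.48 ± 1.64 RPKM in the tagged IP and overlapped with Amotl2 (4.68 ± 0.68) and Stk3 (3.94 ± 0.47).

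The first comparison asks which mRNAs came down with Tnrc6a, as opposed to with the beads. Tag-specific enrichment is the log2 IP to input ratio of tagged cells less that of untagged cells, and a gene was called at an edgeR adjusted p under 0.05 over all genes tested. The LATS kinases and their MOB1 adaptors were enriched in both experiments, Lats1 most. Of the 10 members, 6 were called higher and 2 lower in experiment 1, where 56.9% of all 18772 genes were called (28.1% higher and 28.8% lower). In experiment 2, 6 were called higher and 0 lower, against 27.7% of 19778 genes (18.9% higher and 8.77% lower). The 6 were the same in both: Lats1, Lats2, Mob1a, Mob1b, Stk4 and Amotl2. The members' median log2 difference was 0.96 in experiment 1 and 0.63 in experiment 2, beside -0.10 and -0.03 over all genes. The members were chosen with earlier results of these data known, so these shares and medians are a description and not a test of the pathway. With libraries scaled by total count alone, the all-gene median of experiment 2 moved by -0.20 and the share of higher calls went from 68.4% to 36.5%. Lats1 (3.64), Lats2 (2.25), Mob1a (1.08), Mob1b and Stk4 (0.41) stayed called higher, and Amotl2 (0.42) was no longer called.

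Lats1, a LATS kinase (chr10:7681200-7716461, 7297 bases of exon), gave 28.6, 22.2 and 24.9 CPM in the 3 tagged input libraries of experiment 1 and 786, 794 and 982 CPM in the tagged IP. Untagged IP libraries held 29.2, 30.9 and 29.2 CPM and overlapped with their input at 28.5 to 30.5 CPM, a 1.01-fold ratio. The tagged IP was thus 33.9-fold above its input, and the tag-specific difference was 5.07 ± 0.17 (adjusted p = 4.14e-17), number 79 from the top of 18772 genes. In experiment 2 tagged input held 36.5, 27.0 and 29.4 CPM and tagged IP 484, 371 and 310 CPM, a 12.5-fold ratio. The tag-specific difference there was 3.86 ± 0.22 (adjusted p = 2.92e-13), number 60 of 19778 genes. All tagged IP libraries lay far above all untagged IP libraries, which held 25.3 to 26.4 CPM.

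Lats2, the second LATS kinase (chr14:57689662-57746212, 6971 bases of exon), was scarce in input, at 6.77, 4.99 and 6.39 CPM in tagged cells of experiment 1. The tagged IP held 114, 85.5 and 109 CPM and the untagged IP 4.07, 4.79 and 5.43 CPM, again with no overlap. The IP stood 17.0-fold above input, with a tag-specific difference of 4.32 ± 0.29 (adjusted p = 7.47e-12). In experiment 2 the tagged IP held 42.4, 28.9 and 21.0 CPM over inputs of 4.98 to 5.67 CPM, a 5.69-fold ratio and a tag-specific difference of 2.47 ± 0.39 (adjusted p = 1.20e-05). The other Lats2 row was also enriched, by 3.46 ± 0.31 and 1.81 ± 0.32 in the 2 experiments. How the counting divided reads between these rows was not given in the sources used here.

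Of the LATS adaptors, Mob1b (chr5:88720871-88758455, 15033 bases of exon) was the more enriched. Its tagged IP held 195, 192 and 220 CPM over 28.6, 23.4 and 21.7 CPM in input in experiment 1, an 8.24-fold ratio. In experiment 2 the tagged IP held 112, 101 and 89.9 CPM over 29.0, 22.8 and 21.8 CPM, a 4.12-fold ratio. Tag-specific differences were 3.21 ± 0.20 (adjusted p = 1.41e-12) and 2.31 ± 0.15 (adjusted p = 4.01e-12). Mob1a (chr6:83326034-83342812, 4794 bases of exon) had tagged IP values of 224, 185 and 253 CPM over inputs of 40.1 to 49.2 CPM, then 140, 132 and 124 CPM over inputs of 52.9 to 60.8 CPM. Its differences were 2.66 ± 0.20 (adjusted p = 3.35e-11) and 1.29 ± 0.13 (adjusted p = 9.07e-09). For both adaptors every tagged IP library exceeded every untagged IP library, as drawn in the plot of LATS and MOB1 levels.

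**Figure D1:**
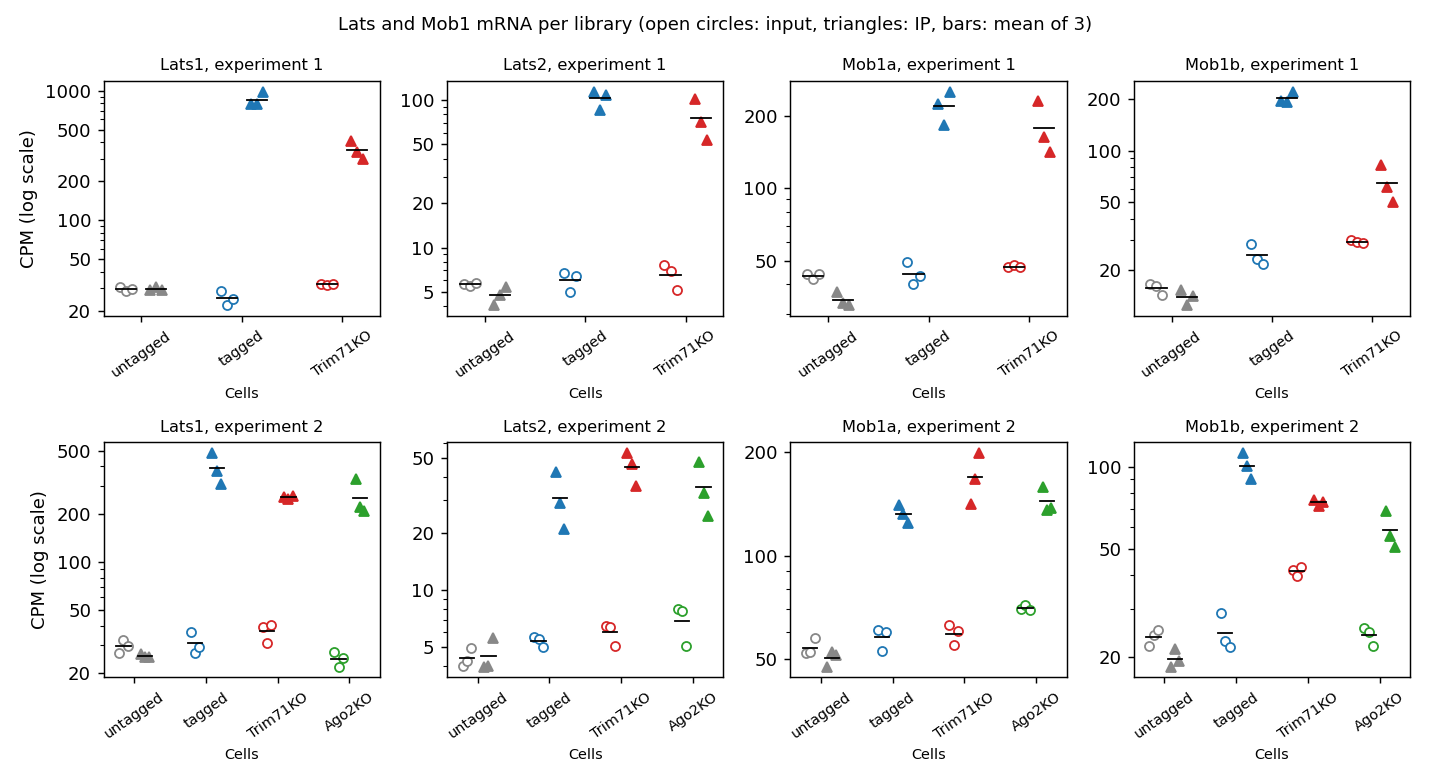
CPM per library (log axis) of Lats1, Lats2, Mob1a and Mob1b by genotype in experiments 1 and 2, with open circles for input, triangles for IP and bars for the mean of 3 libraries. The tagged IP triangles lie above the untagged ones in all 8 panels, and the Mob1b triangles of Trim71KO and Ago2KO lie below the tagged ones.

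Of the MST kinases, Stk4 was called higher and Stk3 was not. Stk4 (chr2:164074113-164155524) held 177, 163 and 214 CPM in tagged IP and 82.7 to 88.1 CPM in untagged IP of experiment 1, with inputs of 85.6 to 109 CPM in both. Its tag-specific difference was 1.18 ± 0.15 (adjusted p = 3.04e-07), and 0.62 ± 0.09 (adjusted p = 2.31e-06) in experiment 2, where tagged IP held 125 to 138 CPM and untagged IP 85.9 to 94.6 CPM. Stk3 (chr15:34875499-35155882) went the other way in experiment 1, with 12.0, 14.3 and 13.2 CPM in tagged IP below 20.4 to 21.2 CPM in untagged IP. This difference of -0.93 ± 0.19 was called (adjusted p = 0.000209), while in experiment 2 it was -0.12 ± 0.12 (adjusted p = 0.497) with overlapping libraries. Sav1, the MST scaffold (chr12:69965009-69988141), was called in neither experiment, at 0.24 ± 0.12 (adjusted p = 0.0942) and -0.01 ± 0.10. In experiment 1 Sav1 was called higher with only the groups compared in the fit (0.31, adjusted p = 0.0408). The same held without tagged input 2 (adjusted p = 0.0395) or tagged IP 2 (adjusted p = 0.0498).

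Neither effector was called higher. Yap1 (chr9:7931999-8004638) came down with the beads in untagged cells: untagged IP of experiment 1 held 411, 474 and 360 CPM against 166 to 169 CPM in input, a 2.48-fold ratio. Tagged IP held less, 192, 242 and 246 CPM, with no overlap. The tag-specific difference was therefore negative, at -0.94 ± 0.20 (adjusted p = 0.000344). In experiment 2 untagged IP (333, 196 and 303 CPM) and tagged IP (300, 280 and 218 CPM) overlapped, both above inputs of 142 to 162 CPM, and the difference was -0.03 ± 0.18 (adjusted p = 0.934). Wwtr1, which encodes TAZ (chr3:57455644-57575910), was called in neither experiment, at 0.14 ± 0.14 and 0.00 ± 0.11.

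Amotl2, both partner and target gene of YAP (chr9:102717091-102733418), held 68.5, 77.2 and 74.9 CPM in tagged IP of experiment 1 and 44.1 to 49.2 CPM in untagged IP, over inputs of 33.1 to 40.0 CPM. The tag-specific difference was 0.74 ± 0.17 (adjusted p = 0.000528). In experiment 2 tagged IP (33.2, 28.2 and 25.7 CPM) lay above untagged IP (18.7, 19.4 and 25.3 CPM) without overlap, though the nearest libraries were close. The difference of 0.63 ± 0.21 (adjusted p = 0.0250) was not called when libraries were scaled by total count alone (0.42, adjusted p = 0.0792). It was also lost without any 1 of 6 libraries, namely untagged input 3, tagged inputs 2 and 3, untagged IPs 1 and 2 and tagged IP 1, with values from 0.51 to 0.80 over all 12 omissions.

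**Figure D2:**
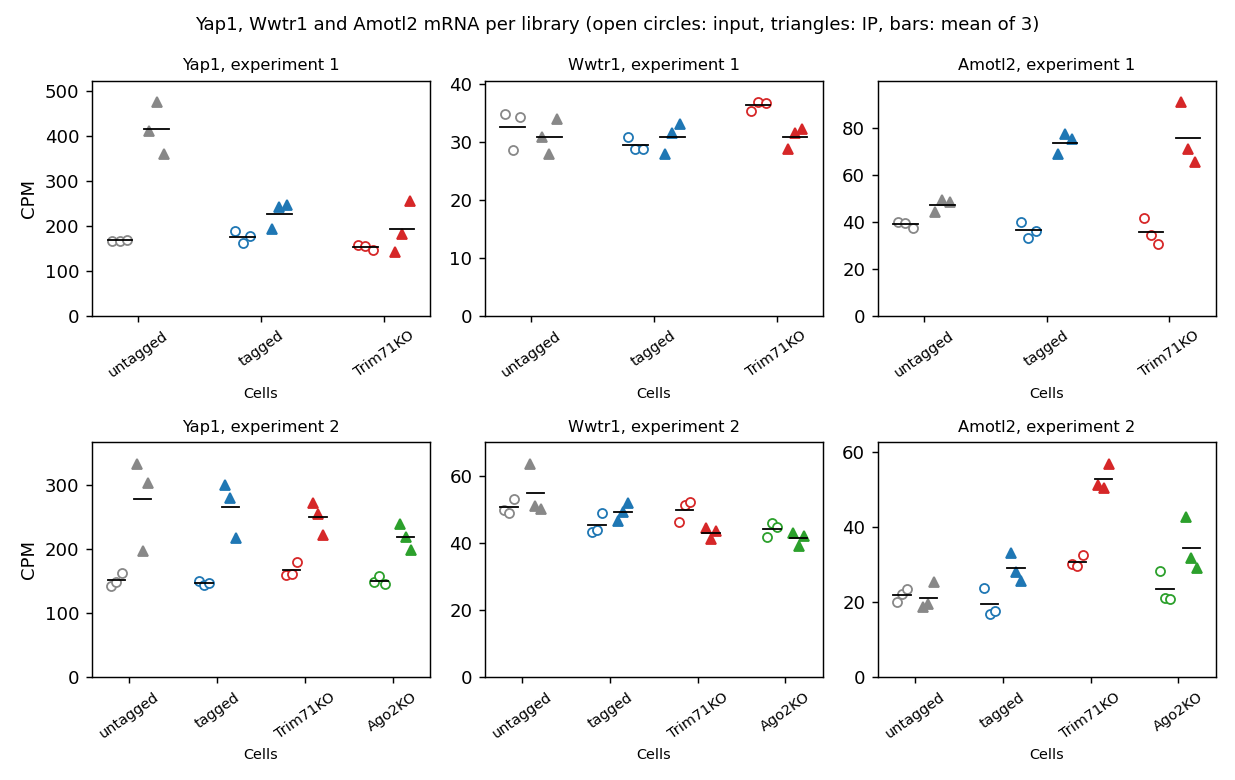
CPM per library (linear axis from 0) of Yap1, Wwtr1 and Amotl2 by genotype in both experiments, with open circles for input, triangles for IP and bars for the mean of 3. Yap1 triangles of untagged cells lie above their inputs in both experiments.

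Enrichment of the LATS and MOB1 mRNAs was larger in experiment 1. A fit over all 42 libraries and 18620 genes called the difference between experiments for 7 of the 10 members, against 28.5% of all genes. For Lats1 the tag-specific value was higher in experiment 1 by 1.31 ± 0.30 on the log2 scale (adjusted p = 0.00114), for Lats2 by 1.96 ± 0.54 (adjusted p = 0.0059) and for Mob1a by 1.48 ± 0.24 (adjusted p = 3.65e-05). The experiments were deposited in separate tables, and whether cells, beads or sequencing differed between them was not given in the sources used here.

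Other genes of the pathway were taken from 5 lists. Among 25 upstream regulators tested in experiment 1, 9 were called higher and 5 lower, led by the kinase Mink1 (3.10) and the LIM protein Limd1 (2.76); Amot, an angiomotin like Amotl2, was lowest at -1.50. The Amot call was lost without untagged IP 2 (adjusted p = 0.0535), and its value ran from -1.91 to -0.82 over the 12 fits that left out 1 library. These 14 calls among 25 genes stood close to the 56.9% called over all genes. In experiment 2, where 27.7% of all genes were called, 9 were higher and 0 lower, and the list's median log2 difference was 0.23 and 0.06 in the 2 experiments. STRIPAK is a phosphatase complex that opposes the MST kinases, and 8 of its 14 genes were called higher and 4 lower in experiment 1, then 7 and 1 in experiment 2 (medians 0.37 and 0.24). Its member Mob4 rose by 3.44 ± 0.17 and 2.70 ± 0.17, from 57.6 to 930 CPM between untagged and tagged IP of experiment 1.

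Of 5 nuclear partners, the TEAD factors and the TEAD-binding repressor Vgll4, 4 were called higher in experiment 1 (Vgll4 at 3.20, Tead1, Tead3 and Tead4) and 3 in experiment 2 (Vgll4 at 2.14, Tead1 and Tead4), with 0 lower (medians 1.40 and 0.65). Among the NDR kinases and further MOB genes, 5 of 6 were higher in both experiments (Mob3a, Mob3b, Mob3c, Stk38 and Stk38l), with medians of 1.95 and 1.30. Over all genes, 28.1% were called higher and 28.8% lower in experiment 1, and 18.9% and 8.77% in experiment 2. Of the YAP and TAZ target genes, 12 of 20 tested were higher and 3 lower in experiment 1. In experiment 2, 8 of 18 of these targets were higher and 1 lower, and the medians were 1.11 and 0.34 in the 2 experiments. The coagulation receptor F3 changed most, by 5.25 ± 0.20 and 3.57 ± 0.28, and Birc5, an inhibitor of apoptosis, was lower by -0.98 ± 0.16 and -0.31 ± 0.09. Limd1, Mink1, Vgll4 and the other list members given without an error here and below were named after their values were seen, and their calls were not followed under other settings. Fat4, Dchs2 and Rbms3 were not analysed here, and Ankrd1 and Foxf2 only in experiment 1.

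**Figure D3:**
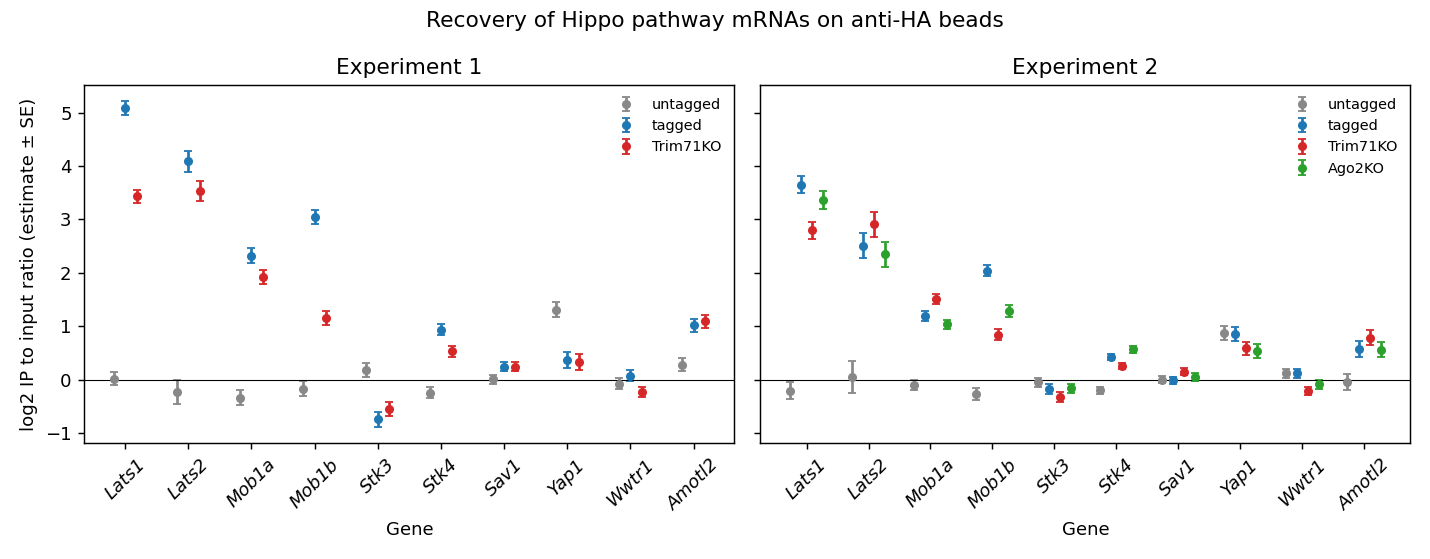
Log2 ratio of IP to input (± SE, 3 libraries per fraction) for the 10 members by genotype in experiments 1 and 2. Lats1, Lats2, Mob1a and Mob1b stand above 1 in the tagged cells of both experiments, and Yap1 is the member with the largest ratio in untagged cells.

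The next comparison asks which associations with Tnrc6a differed in the cells labelled Trim71KO. Trim71-dependent enrichment is the log2 IP to input ratio of Trim71KO less that of tagged cells. Lats1 and Mob1b were lower in both experiments, by -1.65 and -1.90 in experiment 1 and by -0.85 and -1.20 in experiment 2. The mRNA of the bait, Tnrc6a, was also lower in this measure in experiment 1, by -0.86 ± 0.24 (adjusted p = 0.0476), and stood at -0.40 ± 0.28 (adjusted p = 0.542) in experiment 2; its part in the members' values was not tested. Lats1 and Mob1b were the only members called in either experiment, against 3.74% of all genes called in experiment 1 (3.47% lower) and 1.49% in experiment 2 (0.738% lower). The members' medians were -0.35 and -0.16, beside -0.04 and 0.01 over all genes. With scaling by total count alone, the share of higher calls among all genes changed from 7.3% to 24.6% (experiment 1) and from 50.5% to 75.7% (experiment 2).

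Mob1b fell from 195, 192 and 220 CPM in tagged IP to 82.7, 61.6 and 50.4 CPM in Trim71KO IP of experiment 1, while input held 21.7 to 28.6 and 28.7 to 29.9 CPM. The IP groups did not overlap, and the ratio of IP to input went from 8.24-fold to 2.22-fold. The difference was -1.90 ± 0.19 (adjusted p = 2.96e-07). For experiment 2 the IP went from 112, 101 and 89.9 CPM to 75.7, 72.1 and 74.4 CPM, again without overlap. Input there was higher in Trim71KO, with 41.6, 39.8 and 42.9 CPM against 29.0, 22.8 and 21.8 CPM, and the ratio fell from 4.12-fold to 1.79-fold. This difference of -1.20 ± 0.15 (adjusted p = 1.79e-05) was called in all 12 fits that left out 1 library, with values from -1.36 to -1.13.

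Lats1 IP levels went from 786, 794 and 982 CPM in tagged cells to 413, 335 and 298 CPM in Trim71KO cells of experiment 1. With inputs of 22.2 to 28.6 and 31.5 to 32.6 CPM, the ratio fell from 33.9-fold to 10.8-fold, a difference of -1.65 ± 0.16 (adjusted p = 2.96e-07). Lats1 remained above its untagged IP level in each Trim71KO IP library of both experiments. The IP of experiment 2 held 484, 371 and 310 CPM in tagged and 257, 250 and 259 CPM in Trim71KO cells, groups that did not overlap, over inputs that did (27.0 to 36.5 and 31.0 to 40.3 CPM). The difference of -0.85 ± 0.21 was called (adjusted p = 0.0374), but not with only the groups compared in the fit (adjusted p = 0.0513). Nor was it called without any 1 of 8 libraries, namely tagged inputs 2 and 3, Trim71KO inputs 1 and 3, tagged IPs 1 and 2 and Trim71KO IPs 2 and 3, where adjusted p ran up to 0.108.

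Lats2, by contrast, was not called. Its IP libraries overlapped in experiment 1, with 114, 85.5 and 109 CPM in tagged and 101, 71.5 and 53.9 CPM in Trim71KO cells, and the difference was -0.55 ± 0.26 (adjusted p = 0.328). In experiment 2 the estimate had the opposite sign, 0.40 ± 0.34 (adjusted p = 0.638), with 42.4, 28.9 and 21.0 CPM against 53.3, 46.4 and 35.7 CPM. The second Lats2 row gave -0.56 (adjusted p = 0.379) and 0.65 (adjusted p = 0.266). Mob1a was likewise not called, at -0.40 ± 0.19 (adjusted p = 0.321) with IP values of 232, 164 and 142 CPM in Trim71KO cells of experiment 1, and at 0.32 ± 0.13 (adjusted p = 0.214) with 141, 167 and 199 CPM in experiment 2. Trim71KO IP library 1 of experiment 1 was the highest of its group for Lats1, Lats2, Mob1a and Mob1b. Without it, Lats2 (-0.76, adjusted p = 0.0295) and Mob1a (-0.57, adjusted p = 0.0156) were called lower as well, and the number of called genes rose from 703 to 1435 over all genes.

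The MST kinases, Sav1, the effectors and Amotl2 were not called in this comparison. Their estimates ran from -0.40 ± 0.15 for Stk4 (adjusted p = 0.157) to 0.19 ± 0.20 for Stk3 in experiment 1. In experiment 2 the lowest was Wwtr1 at -0.33 ± 0.11 (adjusted p = 0.149). Between the experiments, the difference in Trim71-dependent enrichment was called for 0 of 10 members (0.0967% of all genes, or 18) in edgeR, with 3 at an unadjusted p under 0.05 and 0 called by DESeq2. Those 3 were Lats1 (-0.80, adjusted p = 0.198), Mob1a (-0.73, adjusted p = 0.160) and Mob1b (-0.70, adjusted p = 0.193), and they were the 3 called when Trim71KO IP library 1 of experiment 1 was left out, where the count over all genes was 1167.

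Beyond the members, 3 of 25 upstream regulators were called lower and 0 higher in experiment 1, where 3.47% of all genes were called lower. The TAO kinase Taok1, which activates MST kinases, went from 252 to 89.2 CPM in the IP and changed by -1.72 ± 0.20 (adjusted p = 2.82e-06). Frmd6 changed by -0.82 ± 0.15 and Amotl1 by -0.61. In experiment 2, where 1.49% of all genes were called, Taok1 was lower by -0.75 ± 0.14 (adjusted p = 0.0049), whereas Mink1 was higher by 0.48 ± 0.09. Single genes were lower in experiment 1 in the STRIPAK list (Sike1, -0.53), among nuclear partners (Tead4, -0.63) and among YAP targets (the receptor Axl, -1.54 ± 0.23), and 2 of 6 among the NDR and MOB genes (Mob3c, -0.81, and Stk38, -0.76). In experiment 2 only Tead4 was called in these last 4 lists, at -0.50 ± 0.12, a call that was lost with only the groups compared (adjusted p = 0.0712) and with the Lats2 rows summed. It was also lost without any 1 of 7 of the 12 libraries (the 3 tagged inputs, Trim71KO inputs 2 and 3, tagged IP 2 and Trim71KO IP 2), with adjusted p up to 0.109. List medians lay between -0.23 and -0.03 in experiment 1 and between 0.00 and 0.14 in experiment 2.

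The Ago2KO cells of experiment 2 gave 1 call among the members. Ago2-dependent enrichment, set against the same tagged libraries as above, was lower for Mob1b by -0.76 ± 0.15 (adjusted p = 0.00197), where 4.16% of all genes were called (3.77% lower). Mob1b IP held 69.0, 55.9 and 50.9 CPM in Ago2KO cells, below all tagged IP libraries at 89.9 to 112 CPM, over inputs of 22.0 to 25.6 and 21.8 to 29.0 CPM. The ratio of IP to input was 2.43-fold against 4.12-fold. The call held in all 12 fits that left out 1 library, with values from -0.91 to -0.68. Among all genes, scaling by total count alone took the share of higher calls from 9.2% to 26.1% and moved the median by 0.11.

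Neither LATS kinase was called in Ago2KO cells, and the IP libraries of both overlapped with the tagged ones. Lats1 IP held 331, 222 and 210 CPM against 484, 371 and 310 CPM in tagged cells, and input 27.3, 22.1 and 24.9 against 36.5, 27.0 and 29.4 CPM, so the ratio was 10.3-fold against 12.5-fold. The difference was -0.28 ± 0.21 (adjusted p = 0.654). Lats2 IP held 47.7, 32.8 and 24.6 CPM, and its difference was -0.17 ± 0.34 (adjusted p = 0.916). With that SE, a change of Lats2 of the size called for Mob1b could not be separated from none. The remaining 7 members were not called either, and the median of the 10 was -0.16, beside 0.00 over all genes.

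In the pathway lists, Ago2-dependent enrichment was lower for 3 of 25 upstream regulators (Mink1, -0.60, Amotl1, -0.52, and Frmd6, -0.47). It was lower for 1 of 14 STRIPAK genes and 2 of 6 NDR and MOB genes, and higher for 0 in each list. Over all genes, 3.77% were called lower. The STRIPAK gene was Mob4, a MOB family subunit, at -1.13 ± 0.17 (adjusted p = 7.32e-05), which went from 476 to 278 CPM in the IP. The NDR kinase Stk38l changed by -0.97 ± 0.13 (adjusted p = 3.95e-05) and Mob3a by -0.74 ± 0.18 (adjusted p = 0.0118). No nuclear partner or YAP target was called, and list medians lay between -0.30 and 0.07.

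Trim71KO and Ago2KO cells were also set against each other, and 3 members were called, against 11.8% of all genes (8.94% higher and 2.86% lower in Trim71KO). Mob1a enrichment was higher in Trim71KO by 0.48 ± 0.13 (adjusted p = 0.0127), with IP values of 141, 167 and 199 against 159, 136 and 137 CPM over inputs of 55.0 to 62.8 and 69.7 to 71.9 CPM. The IP libraries overlapped, and the inputs did not. Stk4 was lower by -0.31 ± 0.09 (adjusted p = 0.0188), with IP at 132 to 144 against 139 to 165 CPM. Mob1b was lower by -0.45 ± 0.15 (adjusted p = 0.0467), where its IP was higher in Trim71KO (72.1 to 75.7 against 50.9 to 69.0 CPM) over an input that was higher too (39.8 to 42.9 against 22.0 to 25.6 CPM).

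All 3 of these calls depended on single libraries. Mob1a was lost without Ago2KO input 2, Trim71KO IP 3 or Ago2KO IP 2, with values from 0.31 to 0.56 and adjusted p up to 0.0933. Stk4 was lost without Trim71KO input 1, Trim71KO IP 2 or Ago2KO IP 1 and with only the groups compared, where adjusted p was 0.0833. Mob1b was lost without any 1 of 7 libraries (the 3 Trim71KO inputs, Ago2KO inputs 1 and 3, Trim71KO IP 2 and Ago2KO IP 1), with values from -0.54 to -0.31 and adjusted p up to 0.137, and under 4 other settings. Lats1, at -0.57 ± 0.21 (adjusted p = 0.0830), and Lats2, at 0.57 ± 0.33 (adjusted p = 0.317), were not called. Lats1 was called with scaling by total count alone (adjusted p = 0.0303), with the replicate block within fraction (adjusted p = 0.0304) or of IP with input (adjusted p = 0.0089), and without Ago2KO IP 2 (adjusted p = 0.0454) or IP 3 (adjusted p = 0.0464). Among the other pathway genes the NDR kinase Stk38l (1.23 ± 0.13), Mob3a (1.15 ± 0.18) and Mink1 (1.07 ± 0.09) were higher in Trim71KO, and Taok3 (-0.56 ± 0.16) and Taok1 (-0.54 ± 0.14) lower. The Taok3 call was lost without any 1 of 4 libraries, namely Trim71KO input 2, Ago2KO input 3, Trim71KO IP 2 and Ago2KO IP 3, with adjusted p up to 0.0607.

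**Figure D4:**
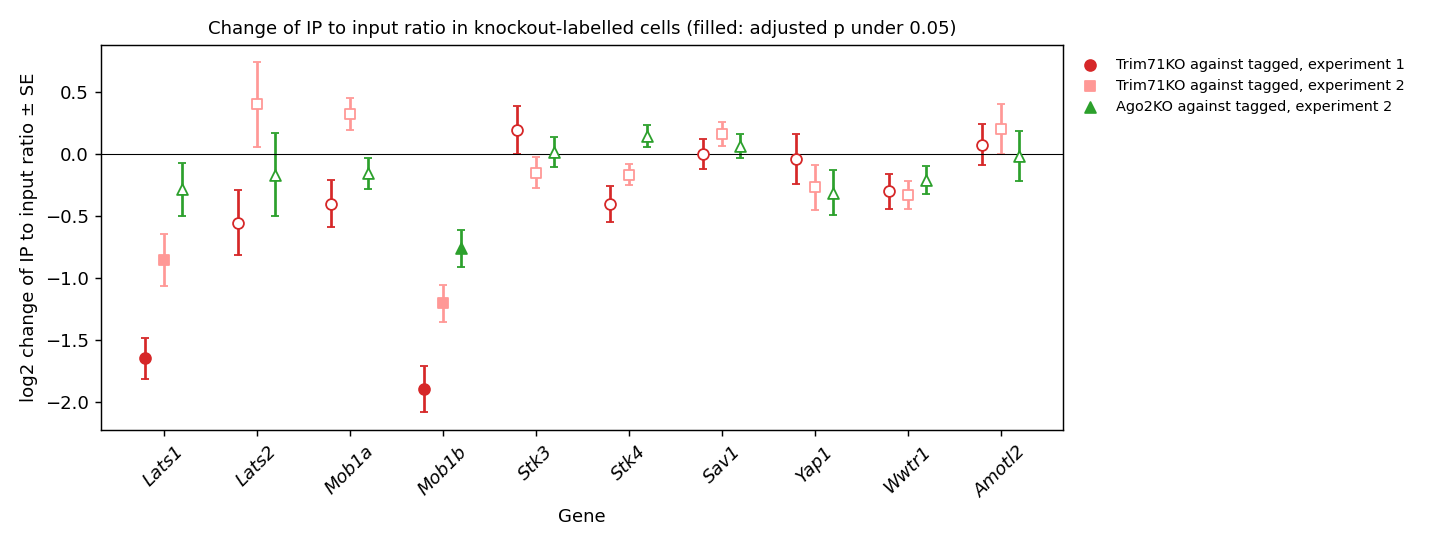
Difference in log2 IP to input ratio (± SE) from tagged cells for the 10 members, for Trim71KO in experiments 1 and 2 and Ago2KO in experiment 2, with filled points for adjusted p under 0.05. Mob1b is filled and below 0 in all 3 comparisons, and Lats1 in both Trim71KO comparisons.

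Input RNA was compared to see whether the mRNAs themselves differed. In bulk RNA, fewer cells of a type and less RNA per cell cannot be told apart. Sav1 was lower in Trim71KO input in both experiments, by -0.34 ± 0.08 (adjusted p = 0.00342) and -0.37 ± 0.07 (adjusted p = 0.000177). Its libraries held 43.7, 46.2 and 46.4 CPM in tagged and 38.8, 33.6 and 35.6 CPM in Trim71KO input of experiment 1, then 65.3, 68.0 and 56.3 against 51.3, 47.3 and 48.3 CPM, with no overlap in either. In all, 3 members were called in experiment 1 and 4 in experiment 2, against 34.0% and 27.2% of all genes, and the members' medians were 0.03 and 0.16.

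The other calls were each made in 1 experiment. In experiment 1 Lats1 was higher by 0.35 ± 0.12 (adjusted p = 0.0243) and Wwtr1 by 0.30 ± 0.10 (adjusted p = 0.0211). The Lats1 call was lost without any 1 of 5 of the 6 libraries, all but tagged input 1, with values from 0.28 to 0.43. The Wwtr1 call was lost without tagged input 3, Trim71KO input 2 or Trim71KO input 3, with values from 0.27 to 0.32. In experiment 2 their estimates were 0.25 ± 0.16 and 0.14 ± 0.08, and the combined fit called no difference between experiments for Lats1 (0.11 ± 0.21, adjusted p = 0.755) or Wwtr1 (0.17 ± 0.12, adjusted p = 0.340).

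Experiment 2 showed Mob1b higher by 0.76 ± 0.11 (adjusted p = 5.09e-06), in the libraries given above. Amotl2 was higher by 0.66 ± 0.15 (adjusted p = 0.00106), with 30.2, 29.6 and 32.5 CPM against 23.8, 16.8 and 17.6 CPM and no overlap. Stk4 was higher by 0.22 ± 0.06 (adjusted p = 0.00914), with 113 to 116 against 95.9 to 99.6 CPM, but was not called with scaling by total count alone (0.15, adjusted p = 0.0632). The combined fit called the difference between experiments for Mob1b (-0.50 ± 0.18), Amotl2 (-0.70 ± 0.20) and Stk4 (-0.32 ± 0.12), where 22.8% of all genes were called.

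Ago2KO input gave 0 called members in edgeR (6.96% of all genes), with 2 at an unadjusted p under 0.05 and 0 called by DESeq2. With only the groups compared in the fit, Lats1 (-0.34, adjusted p = 0.0215) and Mob1a (0.27, adjusted p = 0.00341) were called. Between Trim71KO and Ago2KO inputs 6 members were called, against 28.4% of all genes: Mob1b (0.78), Lats1 (0.58) and Amotl2 (0.40) higher in Trim71KO, and Sav1 (-0.30), Stk3 (-0.26) and Mob1a (-0.25) lower. The calls of Stk3 and Amotl2 were each lost without any 1 of 5 of the 6 libraries and that of Mob1a without any of the 6. Mob1a was also lost with RLE size factors, with no filter, with the Lats2 rows summed and by DESeq2 (adjusted p = 0.0760). Stk4 was gained with RLE size factors, the Lats2 rows summed, only the groups compared and by DESeq2 (adjusted p = 0.0349). Wwtr1 was gained with only the groups compared or without Trim71KO input 1. Tagged against untagged input gave 1 called member in experiment 1 (10.6% of all genes, or 1983, and 722 to 3053 with a library left out), Mob1b, at 28.6, 23.4 and 21.7 against 16.6, 16.3 and 14.4 CPM, a change of 0.64 ± 0.14 (adjusted p = 0.00516). In experiment 2 it gave 0 in edgeR (1.39% of all genes), with 0 at an unadjusted p under 0.05 and 0 by DESeq2. The combined fit called this input difference between experiments for 0 members in edgeR (2.89% of all genes), with 2 at an unadjusted p under 0.05, and DESeq2 called 1, Mob1b.

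**Figure D5:**
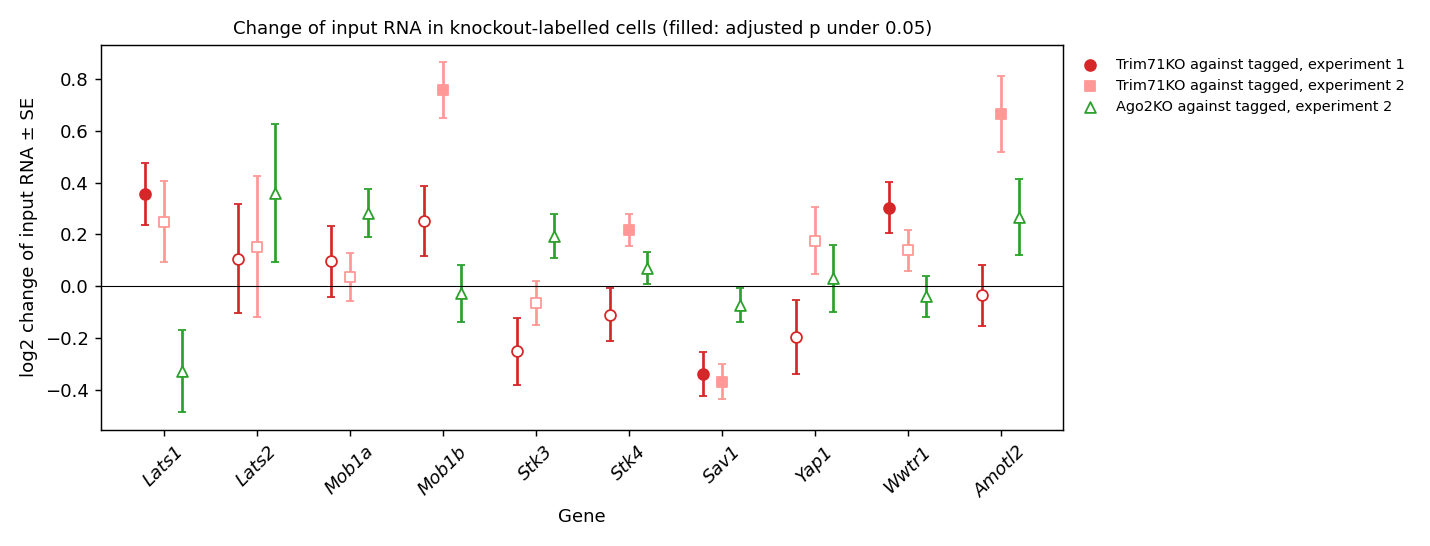
Log2 change of input RNA (± SE) from tagged cells for the 10 members, for Trim71KO in both experiments and Ago2KO in experiment 2, with filled points for adjusted p under 0.05. Sav1 is filled and below 0 in both Trim71KO comparisons, and no Ago2KO point is filled.

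The listed pathway genes went both ways in Trim71KO input, where 34.0% of all genes were called in experiment 1 and 27.2% in experiment 2. Of the YAP and TAZ targets, 7 of 20 were higher and 8 lower in experiment 1, and 8 of 18 higher and 3 lower in experiment 2. Ccn1, a widely used YAP target, went from 7.55 to 2.65 CPM in experiment 1, a change of -1.52 ± 0.22, and F3 changed by -1.07 ± 0.15 and Ccn2 by -1.06 ± 0.25. There Axl (1.37 ± 0.18), Fstl1 (1.08 ± 0.13) and Myof (1.06 ± 0.13) were higher. Experiment 2 gave calls in the same directions for Ccn1 (-1.01), F3 (-0.87 ± 0.23), Axl (0.94 ± 0.18), Fstl1 (0.76) and Myof (0.64), and Ccn2 was not called. Fjx1 (0.95 ± 0.16) was also called higher in experiment 2, and Igfbp3 (-0.77 ± 0.12) lower. Tead4, a TEAD factor of early embryos, was higher in both experiments, at 0.79 and 0.89 ± 0.09. Upstream regulators were higher for 11 and lower for 2 of 25 in experiment 1, and for 8 and 4 in experiment 2, where Amotl1 changed by -0.70 ± 0.08.

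Some markers of other cell types also changed in Trim71KO input, where 34.0% of all genes were called in experiment 1 and 27.2% in experiment 2. Of 8 primitive endoderm markers, 7 were called lower in Trim71KO input in each experiment, and their summed level went from 70.6 to 92.6 CPM in tagged input to 13.3 to 16.0 CPM in experiment 1, and from 24.1 to 26.5 to 8.95 to 10.7 CPM in experiment 2. In Ago2KO input, where 6.96% of all genes were called, 5 of 8 were lower, at a summed 10.5 to 12.0 CPM. The 2 fibroblast markers in the tables, of 6 listed, summed to 22.6 to 24.5 CPM in tagged and 58.0 to 61.8 CPM in Trim71KO input of experiment 1, then to 34.2 to 35.8 and 49.5 to 51.9 CPM. Of the neural markers, 2 of 4 were lower in Trim71KO in both experiments, and of 10 embryonic stem cell markers 4 were higher and 1 lower in experiment 1 and 6 higher and 0 lower in experiment 2. Of the trophectoderm markers, 1 of 3 was called higher in Trim71KO input in each experiment, and no mesoderm marker was called there. In Ago2KO input 1 of 3 trophectoderm markers was lower, while 1 of 3 mesoderm and 1 of 4 neural markers were higher. Embryonic stem cell markers in Ago2KO input were higher for 4 of 10 and lower for 1, and no fibroblast marker was called. Whether cells of these types were present, and their part in the members' input changes, was not tested.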

How the data were processed

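The members and gene lists were chosen with earlier results of these data known. The authors deposited read counts per gene with RPKM values and a gene length column beside them. Per the submitters' processing notes STAR 2.7.3a, bcl2fastq 2.20 and the builds GRCm38 and mm10 were named, and per the file headers the gene length column, printed here as bases of exon, refers to QuasR. Treatment of strand and overlapping genes in the counting was not given in the sources used here. Coordinates and sequences are those of RefSeq GRCm38.p6.

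Tests on the counts used edgeR 4.0.16 under R 4.3.3 (TMM, filterByExpr, quasi-likelihood F test, Benjamini-Hochberg over all genes), with a mean for each group and a fit for each experiment. A combined fit of 42 libraries gave differences between experiments. Standard errors are the log2 change over the square root of F, and CPM are scaled to TMM library sizes. RPKM were used as deposited for the order of levels. Reads carry no stated molecular identifiers. On simulated counts with 200 genes changed, the Trim71 comparison recovered 72% of 2-fold and 92% of 4-fold changes in experiment 1 (18630 genes). In experiment 2 (19628 genes) it recovered 76% and 91%. The changed genes, 100 for each fold, were drawn above a minimum mean count, and the simulated libraries varied independently. Deviations shared by real libraries were not simulated, so these shares are not the recovery in the real data.

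Besides the members, a rule picked up to 3 list genes each way per comparison, by size of change among called genes with a mean log2 CPM of at least 2. Not every gene so picked is printed here, Stk26, Nt5e and Gadd45a being among those left out. Other list genes were named outside this rule. Alternatives were DESeq2 1.42.0, other scalings, no filter, a replicate block, only the groups compared, each library left out and, chosen after seeing the data, the Lats2 rows summed. By replicate number from the titles, tagged and Trim71KO libraries of experiment 2 deviated together in all 3 pairs (r from 0.206 to 0.303 in input and 0.189 to 0.326 in IP). In every other comparison checked, the lowest r of the 3 pairs was at most 0.091. Some of their pairs still deviated together, with r of 0.574, 0.064 and 0.414 for tagged with Ago2KO IP in experiment 2. For tagged with Trim71KO IP in experiment 1, r was 0.35, 0.191 and -0.056. The main fits hold no replicate block.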

Additional observations from a re-analysis of the deposited data

Results flagged for a closer look

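For 7 members the tag-specific enrichment of experiment 1 minus that of experiment 2 passed the edgeR test of the difference itself over all 42 libraries. The log2 differences were 1.31 for Lats1, 1.96 for Lats2, 1.48 for Mob1a, 1.01 for Mob1b (adjusted p = 0.00397) and 0.66 for Stk4 (adjusted p = 0.00302), each larger in experiment 1. They were -0.70 for Stk3 (adjusted p = 0.0152) and -0.81 for Yap1 (adjusted p = 0.0331). With scaling by total count alone, the calls of Stk3 (-0.56, adjusted p = 0.0735) and Yap1 (-0.67, adjusted p = 0.0532) were lost. Yap1 was also lost without any 1 of 6 libraries, with values from -0.97 to -0.61.

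The change of input RNA in Trim71KO cells differed between experiments for 3 members, each lower in experiment 1: Stk4 by -0.32 (adjusted p = 0.0447), Mob1b by -0.50 (adjusted p = 0.0411) and Amotl2 by -0.70 (adjusted p = 0.0094). Stk4 was lost without any 1 of 9 and Mob1b without any 1 of 10 of the 12 libraries, and both with scaling by total count alone, where adjusted p was 0.177 and 0.101.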

How the results depend on the processing

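Over all settings no called value of a member, or of a list gene picked by the rule on size of change, reversed. Of the gene values under other settings, 3994 stayed on their side of the threshold, 169 lost it and 35 gained it. The 3994 include 138 values that were called on neither side and changed sign. With only the groups compared, the members called went to 1 for Trim71-dependent enrichment in experiment 2, to 1 for Trim71KO against Ago2KO enrichment and to 2 for Ago2KO input. A replicate block of IP with input gave 5 members in the direct comparison, adding Lats1 (adjusted p = 0.0089) and Lats2 (adjusted p = 0.0307). Library size alone gave 1 for the input difference between experiments, and DESeq2 gave 1 (Mob1b) for tagged against untagged input between experiments.

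Leaving out each library gave 8 to 9 and 5 to 6 members for tag-specific enrichment in experiments 1 and 2, 2 to 4 and 1 to 2 for Trim71-dependent, 1 to 1 for Ago2-dependent and 1 to 4 for the direct comparison. For input it gave 1 to 3 and 4 to 4 for Trim71KO, 0 to 0 for Ago2KO, 3 to 4 for Trim71KO against Ago2KO, and 1 to 2 and 0 to 0 for tagged against untagged. For differences between experiments it gave 6 to 8, 0 to 3, 1 to 3 and 0 to 1 in the order of tag, Trim71, input Trim71KO and input tagged.

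Over all genes, Trim71-dependent calls in experiment 2 went from 295 to 489 (library size alone), 548 (DESeq2), 136 (only the groups compared) and 98 to 562 (a library left out), and to 470 with the replicate block within fraction, which left the members' calls there as they were. In experiment 1 they ran from 339 to 1435 with a library left out. Input calls with only the groups compared went from 1376 to 2481 for Ago2KO and from 275 to 497 for tagged against untagged in experiment 2. The Trim71 difference between experiments went from 18 to 265 with DESeq2, 94 with the block, 1167 without Trim71KO IP 1 of experiment 1, and 6 to 377 over the other single omissions. That of tagged input went from 539 to 861 with DESeq2 and to 203 (without tagged input 2 of experiment 1) and 1337 (without tagged input 1). The same omissions took tagged against untagged input of experiment 1 from 1983 to 722 and 3053. A library left out gave 774 to 922 for Ago2KO input and 154 to 195 for tagged against untagged input in experiment 2. The cause was not tested. Lats2, at 3.97 to 7.97 CPM over all input libraries, has larger errors than the other members.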
